A study of Homo sapiens with 6 samples.

Results

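Poly(A) polymerases add the adenosine tails found at the 3′ ends of RNAs. Here the genes of 9 such enzymes were examined in HOK-16B cells, an oral keratinocyte line immortalized with papillomavirus DNA. The set comprised TENT5A, TENT5B, TENT5C, TENT2, TENT4A, TENT4B, PAPOLA, PAPOLG and MTPAP. Members were chosen by name, and all 9 were matched by symbol among the 58735 genes of the table. Their values are FPKM, fragments scaled to gene length and to library depth.

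Cells received cannabidiol (CBD), a non-intoxicating cannabis compound, or vehicle, and then an inflammatory stimulus. Both groups were stimulated, so the comparison asked how CBD pretreatment altered expression in stimulated cells. There were 3 CBD libraries and 3 vehicle libraries, assumed from their titles to be of 1 immortalized line. Dose, time and stimulus are not named in the labels, nor whether replicates came from separate cultures. The p-values therefore measure only the spread between these libraries, which may be technical.

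The canonical enzymes, PAPOLA and PAPOLG, act in the nucleus and tail newly cleaved pre-mRNAs. The noncanonical enzymes extend tails elsewhere or on other RNAs. TENT4A and TENT4B tail nuclear RNAs and can add mixed tails, TENT2 (GLD2) acts in the cytoplasm, and MTPAP tails transcripts of the mitochondrial genome. The TENT5 family works in the cytoplasm: TENT5A has been linked to collagen mRNAs in mouse osteoblasts, and TENT5C to immunoglobulin mRNAs in B cells and to growth suppression in myeloma. TENT5B has been described as a highly active cytoplasmic enzyme in human embryonic stem cells.

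The sequences of the TENT5 family decide whether reads of TENT5B can be told from those of its relatives. The coding sequence of TENT5B was 71.1% identical to that of TENT5A over 1259 aligned bases and 68.9% identical to that of TENT5C over 1164. The longest run of identical aligned bases was 29 with TENT5A and 17 with TENT5C. The window of 60 coding bases in which TENT5B had the most identical bases summed over both relatives is given here from the GENCODE 29 transcripts (GRCh38), 5′ to 3′ on the coding strand, with capitals marking bases that differ from TENT5B.
TENT5B: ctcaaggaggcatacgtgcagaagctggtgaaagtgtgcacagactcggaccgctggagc
TENT5A: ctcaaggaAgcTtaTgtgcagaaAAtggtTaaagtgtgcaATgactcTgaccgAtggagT
TENT5C: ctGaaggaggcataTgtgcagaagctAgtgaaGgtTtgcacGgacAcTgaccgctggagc
The stretch covers coding bases 505 to 564 of TENT5B, 790 to 849 of TENT5A and 400 to 459 of TENT5C, counted from the start codon. Within it TENT5A differed from TENT5B at 11 bases and TENT5C at 8. No transcript of another annotated gene held a stretch of 100 bases or more at 98% identity or more to the TENT5B transcript.

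TENT5B had the highest FPKM of the 9 genes in every library. It had 103, 104 and 99.5 FPKM in CBD replicates 1 to 3, against 67.4, 77.1 and 63.8 FPKM in vehicle replicates 1 to 3. The lowest CBD library lay above the highest vehicle library. Means were 102 ± 2.60 FPKM with CBD and 69.5 ± 6.88 FPKM with vehicle (SD, n = 3 each), a ratio of 1.47. By mean level TENT5B ranked 339 among 12517 genes whose mean FPKM reached 1, the level needed for a test. The gene lies on chromosome 1 (27005020 to 27012836, minus strand), with 2 exons and a single annotated transcript of 2368 bases, and no other gene of the table overlaps it. Between 2966 and 5833 fragments per library fell in it, so counting error was 1.35% of the mean in CBD and 1.68% in vehicle, against a spread between libraries of 2.54% in CBD and 9.91% in vehicle.

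The family was put forward because TENT5B had been called higher with CBD in these same data. In a fit over all 12517 genes its difference on the log2(FPKM + 1) scale was 0.56 ± 0.07 (SE; 95% interval 0.38 to 0.73; limma adjusted p = 0.0452). That value chose the gene, so it is given as a description and supports nothing further. Over all genes tested 0.352% were called by this rule, 0.256% of them higher and 0.0959% lower as shares of the genes tested. The call was not kept without CBD replicate 1 (adjusted p = 0.160), CBD replicate 2 (0.198), CBD replicate 3 (0.177), vehicle replicate 3 (0.167) or vehicle replicate 1 (0.0508), where the log2 difference was 0.50 to 0.58. It was kept without vehicle replicate 2, at a log2 difference of 0.63 (limma adjusted p = 0.0173). With the replicate number as a block the adjusted p was 0.0808 by limma.

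**Figure D1:**
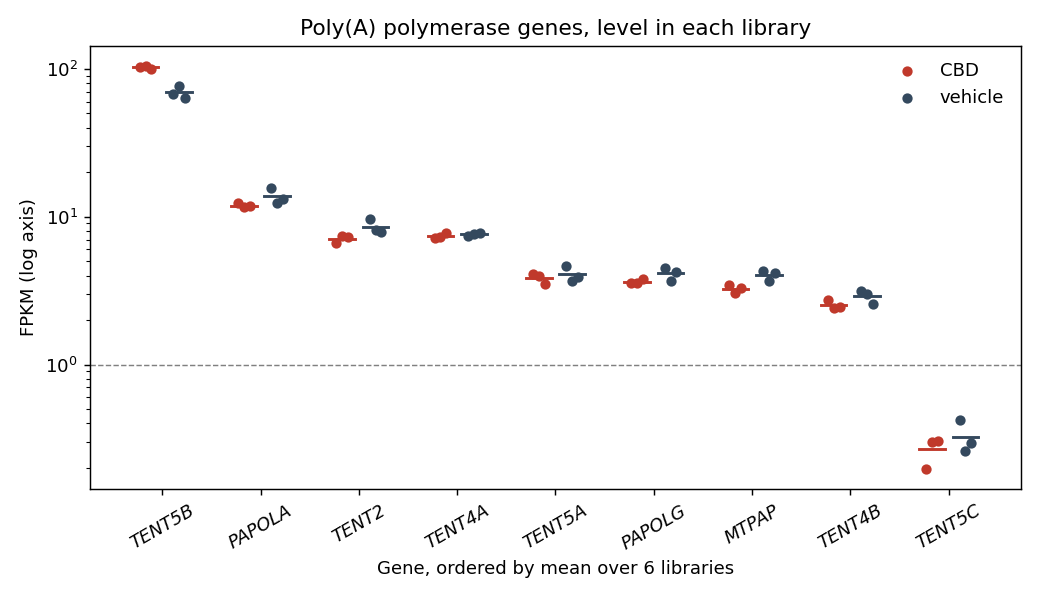
FPKM on a log axis (y) for each of the 9 genes (x), with CBD libraries in red on the left and vehicle libraries in blue on the right; short lines are group means, and the dashed line marks the FPKM of 1 that the mean had to reach for a test. TENT5B stands near 100 FPKM with CBD and below 80 FPKM with vehicle, while TENT5C lies under the dashed line in all 6 libraries.

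The relatives TENT5A and TENT5C were much less abundant. TENT5A, on chromosome 6 (81491439 to 81752774, minus strand), had 4.08, 3.95 and 3.51 FPKM in CBD libraries, against 4.61, 3.67 and 3.92 FPKM in vehicle libraries. The groups overlapped, with means of 3.85 ± 0.301 and 4.06 ± 0.491 FPKM for CBD and vehicle (SD, n = 3 each). Its log2 difference was -0.06 ± 0.09 (SE; 95% interval -0.27 to 0.14; limma adjusted p = 0.646), and 0.07 once a trend in GC content was removed. TENT5C, on chromosome 1 (117605934 to 117628372, plus strand), had 0.197, 0.301 and 0.303 FPKM with CBD, against 0.419, 0.261 and 0.292 FPKM with vehicle. Only 27 to 55 fragments per library fell in TENT5C. It lay below the level tested and its groups overlapped. The TENT5B to TENT5A ratio was 26.7 ± 1.54 in CBD libraries and 17.3 ± 3.33 in vehicle libraries (SD, n = 3 each).

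Of the canonical genes, PAPOLA ranked next to TENT5B in level and PAPOLG lay among the lower members. PAPOLA, the main nuclear poly(A) polymerase gene, on chromosome 14 (96501433 to 96567111, plus strand), had 12.3, 11.6 and 11.8 FPKM with CBD, against 15.7, 12.4 and 13.3 FPKM with vehicle. Every CBD value lay below every vehicle value, narrowly so at CBD replicate 1 and vehicle replicate 2. The log2 difference of PAPOLA was -0.19 ± 0.08 (SE; 95% interval -0.39 to 0.01; limma adjusted p = 0.167). PAPOLG, which encodes a second nuclear enzyme, on chromosome 2 (60756230 to 60802085, plus strand), had 3.54, 3.57 and 3.77 FPKM with CBD, against 4.53, 3.68 and 4.24 FPKM with vehicle. CBD replicate 3 overlapped vehicle replicate 2, and the log2 difference was -0.15 ± 0.07 (SE; limma adjusted p = 0.207). The ratio of PAPOLA to PAPOLG was 3.28 ± 0.176 with CBD and 3.33 ± 0.181 with vehicle (SD, n = 3 each), with overlapping values. A gene antisense to PAPOLA, PAPOLA-DT, shares 157 exon bases with it. Strand setting is not known here, so reads of the pair cannot be told apart there, but PAPOLA-DT reached at most 0.962 FPKM.

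The nuclear noncanonical genes TENT4A and TENT4B differed in level. TENT4A, on chromosome 5 (6713007 to 6757048, plus strand), had 7.22, 7.34 and 7.79 FPKM in CBD libraries, against 7.45, 7.64 and 7.76 FPKM in vehicle libraries. These values overlapped, and the log2 difference was -0.03 ± 0.05 (SE; 95% interval -0.15 to 0.09; limma adjusted p = 0.712). TENT4B, on chromosome 16 (50152918 to 50235310, plus strand), had 2.72, 2.39 and 2.43 FPKM with CBD, against 3.13, 3.0 and 2.56 FPKM with vehicle. CBD replicate 1 overlapped vehicle replicate 3, and the log2 difference was -0.15 ± 0.08 (SE; limma adjusted p = 0.250). The TENT4A to TENT4B ratio was 2.97 ± 0.288 with CBD and 2.65 ± 0.338 with vehicle (SD, n = 3 each), again with overlap.

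TENT2 and MTPAP, like PAPOLA, lay lower in every CBD library than in any vehicle library. TENT2, on chromosome 5 (79612120 to 79686648, plus strand), had 6.64, 7.43 and 7.24 FPKM with CBD, against 9.68, 8.10 and 7.90 FPKM with vehicle. The highest of the 6 values came from vehicle replicate 1. Its log2 difference was -0.24 ± 0.08 (SE; 95% interval -0.43 to -0.04; limma adjusted p = 0.114), which did not pass. MTPAP, on chromosome 10 (30309801 to 30374448, minus strand), had 3.46, 3.06 and 3.28 FPKM with CBD, against 4.32, 3.65 and 4.14 FPKM with vehicle. The difference was -0.24 ± 0.07 (SE; 95% interval -0.41 to -0.07; limma adjusted p = 0.0919), which did not pass either. On fragments recovered from the FPKM values, limma-voom called MTPAP lower (log2 difference -0.30, adjusted p = 0.0423), where 6.69% of all genes tested were called lower. The pseudogene GOLGA2P6 shares 1626 exon bases with MTPAP and an antisense gene 1120, both listed at 0, so how reads there were assigned is uncertain.

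**Figure D2:**
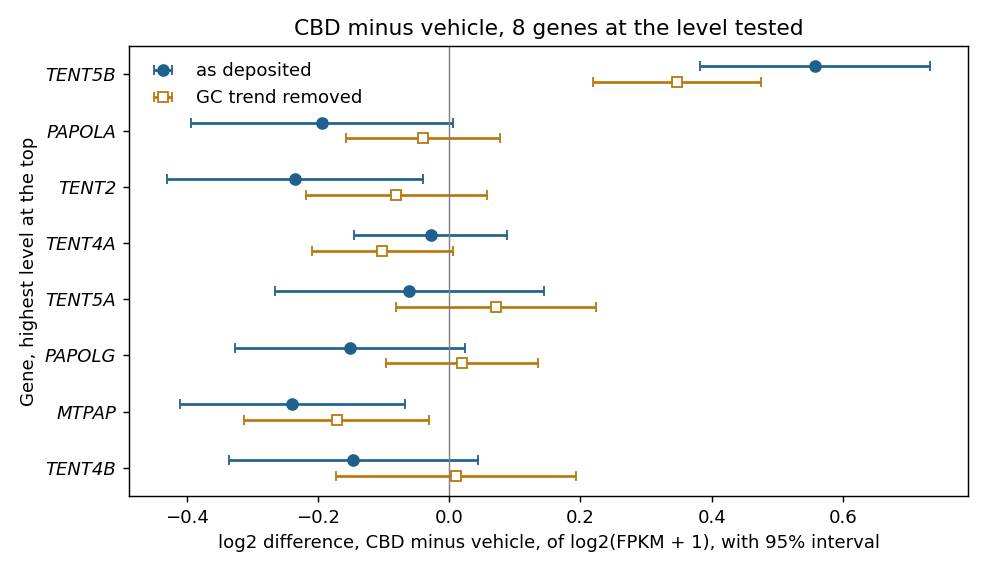
Log2 difference, CBD minus vehicle, of log2(FPKM + 1) (x) with 95% intervals for the 8 genes at the level tested (y), as deposited (filled circles) and after removal of a GC trend (open squares). TENT5B lies above 0 in both, at 0.56 and 0.35, and the intervals of TENT2 and MTPAP as deposited lie below 0.

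Of the 8 members tested, TENT5B was called higher and 0 were called lower by limma, while 3 (TENT5B, TENT2 and MTPAP) had an unadjusted p under 0.05, a share of 31.4% over all genes tested. In 4 members the groups did not overlap, 1 higher and 3 lower with CBD, where 18.7% of all genes tested were higher without overlap and 21.9% lower. The members' median log2 difference was -0.15, against -0.01 over all genes tested. The 7 members other than TENT5B all lay below 0 as deposited, a side shared by 52.6% of all genes tested, but only 4 of these 7 did with the GC trend removed, against 49.7% of all genes: TENT5A, TENT4B and PAPOLG then lay above 0 (0.07, 0.01 and 0.02).

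GC content moved with the groups: the lowest CBD library (50.7%) lay above the highest vehicle library (50.3%). A library difference in GC content and a CBD difference that follows GC content therefore cannot be told apart here. Removing the trend takes out both. Counted fragments came from genes with a mean transcript GC content of 50.7% ± 0.0437 in CBD libraries and 50.0% ± 0.386 in vehicle libraries (SD, n = 3 each). Vehicle replicate 1 was lowest, at 49.6%, and stood farthest from the others on the first principal component. Across the 12502 other tested genes, which are not independent, the log2 difference rose with GC content (Spearman rho 0.67). Its median was -0.17 in the GC-poorest decile of all genes tested and 0.24 in the GC-richest.

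The members spanned much of that range. TENT5B, at 62.5% GC, falls in the richest decile, and 79.8% of its codons end in G or C. TENT4A stands at 55.1% and MTPAP at 46.2%, while TENT5A, PAPOLA, TENT2, TENT4B and PAPOLG lie between 37.7% and 41.6%. With the trend removed TENT5B kept a log2 difference of 0.35 (limma adjusted p = 0.0776), no longer called, where 0.04% of all genes were called. MTPAP stood at -0.17, TENT4A at -0.10, TENT2 at -0.08 and PAPOLA at -0.04 in the same fit. Without vehicle replicate 1 as well, an alternative chosen after seeing the data, TENT5B stood at 0.38 (limma adjusted p = 0.0726).

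**Figure D3:**
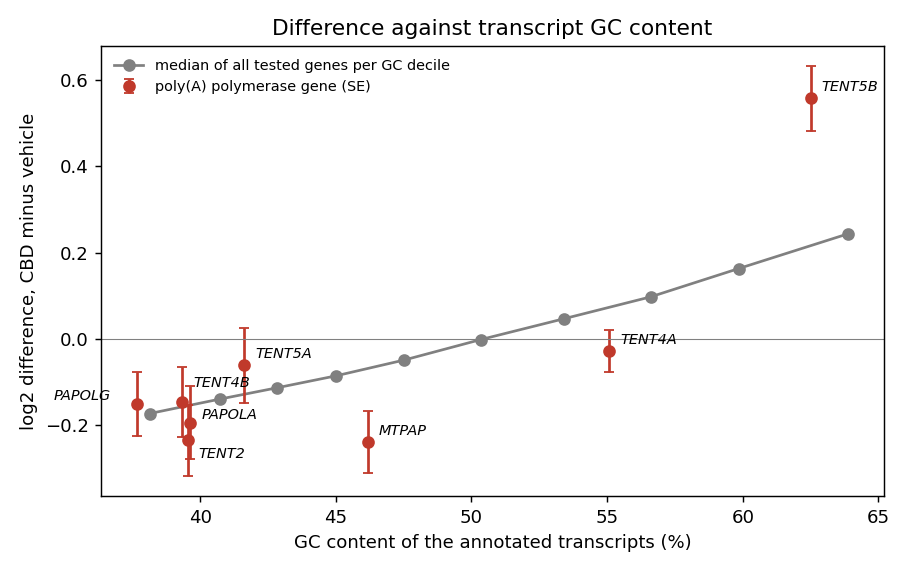
Log2 difference, CBD minus vehicle (y), against GC content of the annotated transcripts (x) for the 8 tested members in red with SE, and the median of all tested genes in each GC decile in grey. TENT5B lies above the grey line, at 0.56 against 0.24 for the richest decile, and MTPAP, TENT4A, TENT2 and PAPOLA lie below it.

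In order of mean FPKM over the 6 libraries the genes ran TENT5B, PAPOLA, TENT2, TENT4A, TENT5A, PAPOLG, MTPAP, TENT4B and TENT5C. These FPKM values divide by the exon-union length, which exceeds the length of a transcript unevenly. TENT5B has 2368 bases by both measures. PAPOLA has 12766 bases against 4519 in its transcript with the longest coding sequence, PAPOLG 8501 against 4263, and TENT5A 6053 against 5537. The order between genes therefore depends on the length used, and other lengths were not tried. TENT5B averaged 85.9 ± 18.6 FPKM and PAPOLA 12.9 ± 1.53 FPKM (SD over 6 libraries), with no overlap. TENT2 (7.83 ± 1.04) and TENT4A (7.53 ± 0.234) overlapped, and TENT2 was the higher in 4 of 6 libraries. TENT5A (3.96 ± 0.383), PAPOLG (3.89 ± 0.402) and MTPAP (3.65 ± 0.493) overlapped as neighbours, though PAPOLG exceeded MTPAP in 6 of 6 libraries. MTPAP also overlapped TENT4B (2.71 ± 0.302) and exceeded it in 6 of 6 libraries. TENT5C, at 0.296 ± 0.0723 FPKM, lay apart at the bottom.

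TENT5B alone made up most of the summed FPKM. It took 72.0%, 72.5% and 71.3% of the summed FPKM of the 9 genes in CBD libraries, against 57.5%, 64.5% and 59.2% in vehicle libraries. The size of this share depends on the exon-union lengths given above, so it is no share of transcript molecules. The 9 genes together reached 142 ± 2.43 FPKM with CBD and 115 ± 6.18 FPKM with vehicle (SD, n = 3 each). The other 8 genes summed to 40.0 ± 0.267 FPKM with CBD and 45.5 ± 3.92 FPKM with vehicle, so the sums with and without TENT5B differed in opposite directions. For those 8 genes vehicle replicates 1 to 3 had 49.9, 42.4 and 44.1 FPKM, highest in vehicle replicate 1. In FPKM, TENT5B exceeded PAPOLA 8.61 ± 0.327 times in CBD libraries and 5.10 ± 0.992 times in vehicle libraries. Before division by length, PAPOLA held 3103 to 4594 fragments per library and TENT5B 2966 to 5833. In vehicle replicate 1 PAPOLA held more, 4594 against 3646. The size of this ratio therefore rests on the exon-union lengths. The sums, shares and ratios restate the contrast that chose TENT5B and were not tested.

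**Figure D4:**
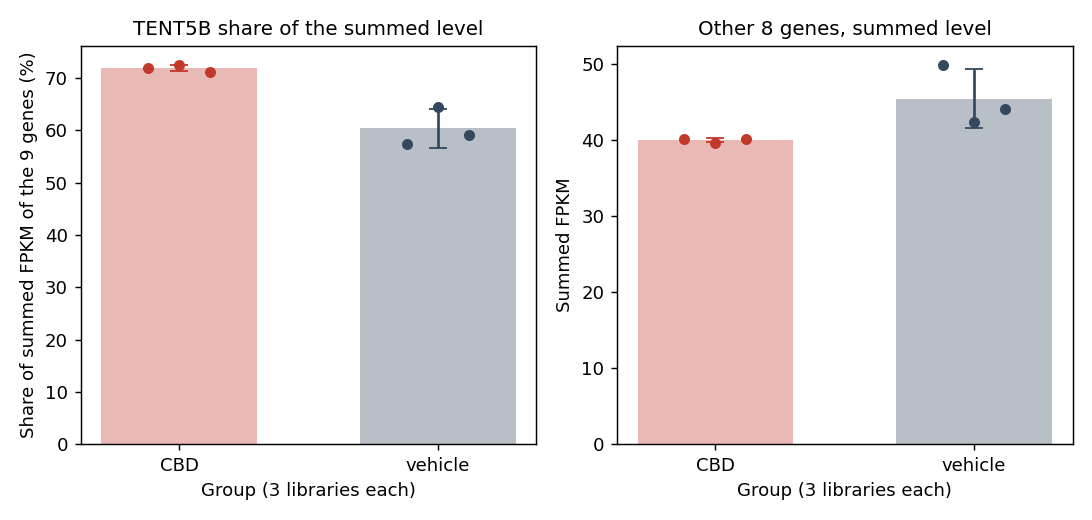
Left, the TENT5B share of the summed FPKM of the 9 genes (%); right, the summed FPKM of the other 8 genes; bars are means of 3 CBD and 3 vehicle libraries, error bars are SD and points are libraries. The TENT5B share is 71.9% with CBD and 60.4% with vehicle, while the other 8 genes sum to 40.0 and 45.5 FPKM.

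Enzymes related to the 9 were measured from a separate list. TUT7 and TUT4, which add uridines to RNA 3′ ends, had 7.36 ± 0.286 and 5.36 ± 0.293 FPKM with CBD, against 8.18 ± 0.216 and 5.48 ± 0.485 FPKM with vehicle. TUT1, a nuclear enzyme that uridylates U6 RNA and can tail selected mRNAs, had 4.58 ± 0.237 FPKM with CBD and 4.34 ± 0.295 FPKM with vehicle. None of these 3 passed (limma adjusted p = 0.125 for TUT7, 0.828 for TUT4 and 0.50 for TUT1). An unadjusted p under 0.05 was found for 1 of the 3 (31.4% over all genes), and limma-voom called 0 (13.9% over all genes). All 3 changed side when the GC trend was removed: the log2 difference was -0.13 as deposited and 0.01 after removal for TUT7, -0.03 and 0.12 for TUT4, and 0.07 and -0.08 for TUT1. The remaining relative in the TENT5 family, TENT5D, had 2 fragments in 1 CBD library and 0 in the other 5 libraries, and the testis enzyme gene PAPOLB had 0 in all 6.

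Around the polymerases, 104 of 108 genes of poly(A) tail metabolism in 8 lists were at the level tested. By limma 0 were called and 24 had an unadjusted p under 0.05, where 31.4% of all genes tested did. On recovered fragments limma-voom called 1 higher and 10 lower, where it called 13.9% of all genes, 7.26% higher and 6.69% lower. Their median log2 difference was -0.09 against -0.01 over all genes tested, and -0.01 against 0.00 with the GC trend removed. The lists had a median GC content of 44.3%, against 48.9% for all genes tested.

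Deadenylases shorten the tails that polymerases make. Of 20 tested genes of this list, 0 were called by limma and 4 had an unadjusted p under 0.05 (31.4% over all genes). By limma-voom 1 was called higher and 1 lower (7.26% and 6.69% over all genes). BTG1, an antiproliferative adaptor of the CCR4-NOT deadenylase, had 6.65, 6.39 and 6.78 FPKM in CBD libraries, against 5.11, 4.66 and 4.84 FPKM in vehicle libraries. Every CBD value lay above every vehicle value. The log2 difference of BTG1 was 0.37 (limma adjusted p = 0.0502, just short of the threshold; range over alternatives 0.00163 to 0.198). BTG1 transcripts are 40.3% GC. Once the GC trend was removed the BTG1 difference was 0.52 and passed (limma adjusted p = 0.0427), where 0.04% of all genes were called. With the replicate block added to that fit, 0 genes were called. As deposited, BTG1 had the smallest adjusted p of all tested genes in the 8 lists. CNOT7, a catalytic subunit of CCR4-NOT, had 8.46 ± 0.0663 FPKM with CBD and 10.4 ± 1.44 FPKM with vehicle (limma adjusted p = 0.111). CNOT9, a core subunit, had 16.3 ± 0.725 and 18.3 ± 0.849 FPKM with CBD and vehicle (0.113). TOB2, another adaptor, had 15.3 ± 0.302 FPKM with CBD and 13.5 ± 1.29 FPKM with vehicle (0.158). With the GC trend removed the log2 difference went from -0.26 to -0.10 for CNOT7, -0.16 to -0.12 for CNOT9 and 0.17 to 0.09 for TOB2.

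Cleavage and polyadenylation factors prepare the 3′ end for the canonical polymerases. Of 17 tested, 0 were called by limma, and their median log2 difference was -0.03. An unadjusted p under 0.05 was found for 3 (31.4% over all genes), and limma-voom called 1 lower (6.69% over all genes). CPSF2, a subunit of the cleavage complex, had 5.31 ± 0.265 FPKM with CBD and 6.80 ± 0.707 FPKM with vehicle (limma adjusted p = 0.0738). CPSF6, part of the factor that steers the choice of cleavage site, had 13.9 ± 0.108 and 15.2 ± 0.365 FPKM with CBD and vehicle (0.111). RBBP6, a cleavage cofactor, had 8.21 ± 0.113 FPKM with CBD and 9.41 ± 1.01 FPKM with vehicle (0.164). CPSF1, the scaffold subunit, had 14.3 ± 0.677 FPKM with CBD and 12.7 ± 0.447 FPKM with vehicle (0.113), a log2 difference of 0.15 as deposited and -0.06 with the GC trend removed. Removing the trend also turned CPSF6, from -0.13 as deposited to 0.03, and took CPSF2 from -0.30 to -0.15 and RBBP6 from -0.17 to -0.04.

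Poly(A)-binding proteins coat the finished tail. Of 8 tested, 0 were called by limma, 0 had an unadjusted p under 0.05 (31.4% over all genes), and limma-voom called 0 (13.9% over all genes). PABPC1, the main cytoplasmic form, had 146 ± 1.09 FPKM with CBD and 153 ± 8.23 FPKM with vehicle (limma adjusted p = 0.409). PABPN1, the nuclear form that stimulates PAPOLA, had 18.1, 19.3 and 17.8 FPKM with CBD, against 6.30, 16.7 and 13.3 FPKM with vehicle. The low value of vehicle replicate 1 set most of that spread: the log2 difference was 0.66 with all libraries (limma adjusted p = 0.175) and 0.29 without vehicle replicate 1. PABPN1 shares exons with a read-through gene, BCL2L2-PABPN1, and PABPC1 has near-identical pseudogenes, so how their reads were divided is uncertain. ZC3H14, a zinc-finger protein that binds adenosine tails, had 4.24 ± 0.308 FPKM with CBD and 4.997 ± 0.676 FPKM with vehicle (0.199). PAIP1, a partner of PABPC1, had 21.9 ± 0.667 and 23.6 ± 1.61 FPKM with CBD and vehicle (0.270).

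The RNA exosome degrades RNAs that TENT4B and its helper proteins have tailed. Of 19 tested genes 16 lay below 0 as deposited and 13 with the GC trend removed, where 52.6% and 49.7% of all genes did. By limma 0 were called and 7 had an unadjusted p under 0.05 (31.4% over all genes), and limma-voom called 4 lower (6.69% over all genes). Median log2 differences were -0.14 as deposited and -0.06 with the trend removed. ZFC3H1, which links tailed nuclear RNAs to the exosome, had 9.41 ± 0.215 FPKM with CBD and 11.9 ± 1.10 FPKM with vehicle (limma adjusted p = 0.0636). EXOSC9, a ring subunit, had 7.74 ± 0.177 and 9.17 ± 0.403 FPKM with CBD and vehicle (0.0666). EXOSC2, a cap subunit, had 14.4 ± 0.369 FPKM with CBD and 17.03 ± 1.01 FPKM with vehicle (0.0702). MPHOSPH6, an exosome cofactor, had 8.95 ± 0.297 and 11.4 ± 1.47 FPKM with CBD and vehicle (0.0811). Removing the GC trend took the log2 difference of EXOSC9 from -0.22 to -0.07 and of ZFC3H1 from -0.30 to -0.17. MPHOSPH6 went from -0.31 to -0.17, and EXOSC2 from -0.23 to -0.21.

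Partners of the noncanonical enzymes were close to the middle of all genes. Of 10 tested, 5 lay above and 5 below 0, and the median was -0.02. By limma 0 were called and 1 had an unadjusted p under 0.05 (31.4% over all genes), and limma-voom called 0 (13.9% over all genes). FNDC3A and FNDC3B, endoplasmic reticulum proteins that bind TENT5 enzymes, had 10.4 ± 0.213 and 10.3 ± 0.380 FPKM with CBD, against 11.99 ± 1.01 and 11.4 ± 0.507 FPKM with vehicle (limma adjusted p = 0.116 and 0.162). BCCIP, a nuclear protein reported to bind a TENT5 enzyme, had 13.3 ± 0.231 FPKM with CBD and 14.4 ± 0.599 FPKM with vehicle (0.187). SAMD4B, an RNA-binding SMAUG protein, had 17.2 ± 0.481 and 15.9 ± 0.925 FPKM with CBD and vehicle (0.211). With the GC trend removed SAMD4B turned to -0.02 (0.11 as deposited) and BCCIP to 0.04 (-0.11), while FNDC3A and FNDC3B stood at -0.02 and -0.03 (-0.18 and -0.13).

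MTPAP works with other proteins on mitochondrial RNA. Of 14 tested genes of mitochondrial RNA handling, 13 lay below 0 as deposited and 11 with the GC trend removed, against 52.6% and 49.7% of all genes. By limma 0 were called and 7 had an unadjusted p under 0.05 (31.4% over all genes), and limma-voom called 4 lower (6.69% over all genes). TWNK, the mitochondrial DNA helicase, had 6.45 ± 0.364 FPKM with CBD and 7.73 ± 0.0988 FPKM with vehicle (limma adjusted p = 0.0668). TFAM, which packages and transcribes mitochondrial DNA, had 12.4 ± 0.440 and 14.5 ± 0.562 FPKM with CBD and vehicle (0.0703). PNPT1, the mitochondrial polynucleotide phosphorylase and an interferon-induced gene, had 17.7, 17.8 and 15.4 FPKM with CBD, against 28, 19.4 and 23.4 FPKM with vehicle (0.0866). The 3 vehicle values lay above the 3 CBD values and differed widely among themselves. FASTKD2, an RNA-binding protein of mitochondria, had 6.60 ± 0.353 FPKM with CBD and 8.26 ± 0.947 FPKM with vehicle (0.0875). Removing the GC trend took the log2 difference of TFAM from -0.21 to -0.06 and of FASTKD2 from -0.28 to -0.12. PNPT1 went from -0.44 to -0.29, and TWNK from -0.23 to -0.27.

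Transcripts of the mitochondrial genome were also measured. All 13 of its protein-coding genes were listed, whether or not MTPAP tails each transcript. Some neighbours overlap, such as MT-ND4L and MT-ND4, so the 13 are not independent. Of the 13, 11 lay below 0 as deposited and 7 with the GC trend removed (52.6% and 49.7% over all genes). By limma 0 were called and 1 had an unadjusted p under 0.05 (31.4% over all genes), and limma-voom called 0 (13.9% over all genes). MT-ND4L had 3140 ± 200.3 FPKM with CBD and 3681 ± 312 FPKM with vehicle (limma adjusted p = 0.132). MT-CO1 had 6911 ± 479 FPKM with CBD and 7822 ± 541 FPKM with vehicle (0.198), and MT-CO2 8817 ± 517 and 9965 ± 739 FPKM with CBD and vehicle (0.204). MT-ND5 had 834 ± 29.8 FPKM with CBD and 896 ± 62.6 FPKM with vehicle (0.333).

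**Figure D5:**
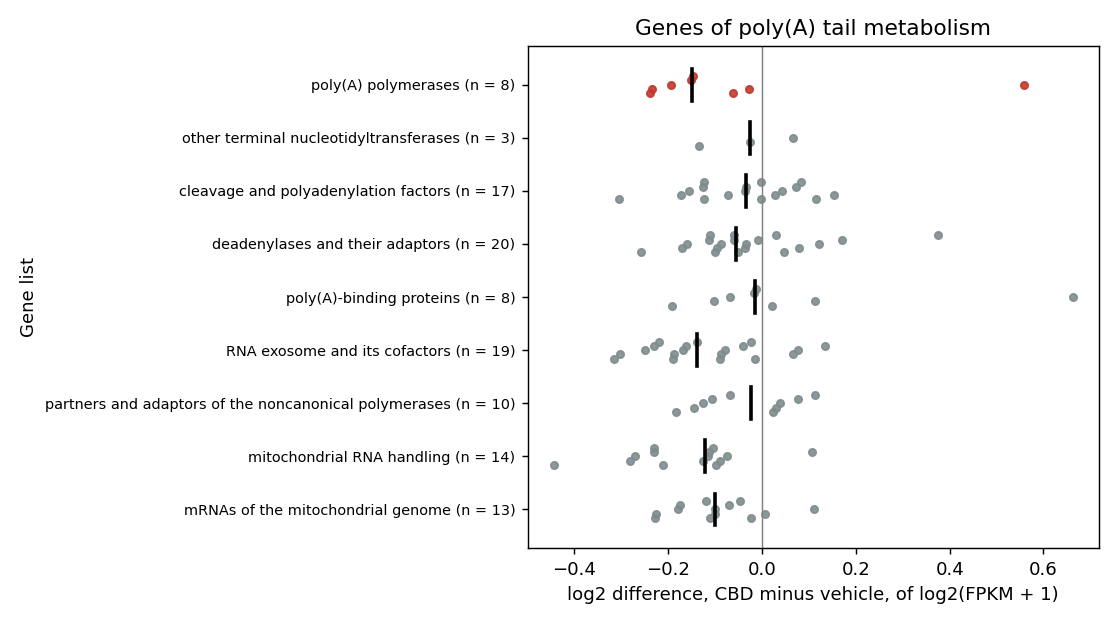
Log2 difference, CBD minus vehicle, of log2(FPKM + 1) (x) for every tested gene (points, spread vertically for visibility) of the poly(A) polymerases in red and of 8 related lists in grey (y); black bars are medians. TENT5B, at 0.56, lies apart from the 7 other polymerases, and PABPN1 (0.66) and BTG1 (0.37) are the highest points of the grey lists.

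Genes whose levels followed TENT5B most closely over the 6 libraries were CENPBD2P (Pearson r = 0.9997), AP1M2 (0.998), AGPAT2 (0.997), AP2S1 (0.996) and CDC42EP4 (0.995). These values rest on 6 libraries in 2 groups that differ in both genes, and share depth and GC differences, and 982 of 12516 other genes reached an r of 0.9. AGPAT2, an acyltransferase of phospholipid synthesis, had 36.6 ± 1.67 FPKM with CBD and 25.3 ± 2.56 FPKM with vehicle. CDC42EP4, an effector of the GTPase CDC42, had 61.2 ± 0.576 FPKM with CBD and 44.6 ± 2.75 FPKM with vehicle. PAPOLA was most like SF3B1, SUZ12 and EML4 (r = 0.999 each), PAPOLG most like CBL (0.997), BLM (0.994) and FAM81A (0.994), and MTPAP most like NOTCH2 (0.998), PUS7L (0.996) and HSPA5 (0.995). TENT2 was most like PPP3CB, EI24 and MANEA (0.996, 0.996 and 0.995), and TENT5A most like SYCE2, RCAN3 and RPS7P10 (0.991, 0.987 and 0.986). TENT4A was most like IL18BP, SFXN4 and RAB11FIP1P1 (0.985, 0.974 and 0.966), and TENT4B most like IMMP1L, EPDR1 and ENSG00000274525 (0.983, 0.981 and 0.981).

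Libraries held 18213784 to 22158614 fragments in genes, 19010494 to 22158614 with CBD and 18213784 to 21200871 with vehicle. All 15 keratinocyte markers had a mean FPKM of at least 1, and their summed level was 12950 to 13552 FPKM with CBD and 10569 to 12401 FPKM with vehicle. Of 7 fibroblast markers COL1A1 reached that level and PDGFRA was at 0, and the sum was 8.94 to 8.99 FPKM with CBD and 6.94 to 7.70 FPKM with vehicle. The 4 endothelial markers summed to at most 0.159 FPKM with CBD and 0.123 FPKM with vehicle. Of 4 melanocyte markers PMEL reached a mean FPKM of 1 and TYR was at 0, with sums of 1.41 to 1.603 FPKM with CBD and 1.02 to 1.53 FPKM with vehicle. The part of these differences in the TENT5B values was not tested. In bulk RNA, fewer cells of a type and less RNA per cell cannot be told apart.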

How the data were processed

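Paired-end RNA libraries, 3 CBD and 3 vehicle, were made per the labels' protocols. Groups follow the treatment tag and replicates are numbered as in the titles. The free-text description numbers the line differently in each sample, while all titles name HOK-16B, so 1 line was assumed. The authors deposited FPKM per gene and library. Alignment with HISAT2 2.0.5 and counting with featureCounts 1.5.0-p3 are taken from the submitters' processing notes; build, annotation, strand setting and filters are not given in the sources used here. All 58735 gene identifiers were found in GENCODE 29, whose exon-union lengths gave whole fragments for 100% of values (tolerance 0.01 of a fragment).

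Differences were computed on log2(FPKM + 1), which understates changes of low genes, for 12517 genes whose mean FPKM reached 1, with limma 3.58.1 in R 4.3.3 (group as the only term, intensity trend, two-sided, Benjamini-Hochberg adjustment over all genes, threshold 0.05). Adjusted p-values in the text are from this fit unless limma-voom is named. GC content was taken over all annotated transcripts of a gene, and its trend removed by loess (span 0.3). The main fit was tested on simulated counts that held no GC trend and no outlying library. That test therefore does not cover these features of the data. Members, lists and alternatives were chosen with earlier results of these data known. A leukocyte marker list is not reported here. Named list genes are the 4 with the smallest adjusted p (3 where only 3 were tested); genes most alike are those with the highest Pearson r, 5 for TENT5B and 3 for other members. Tables used Python 3.11.15 and pandas 2.3.3.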

Additional observations from a re-analysis of the deposited data

How the results depend on the processing

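TENT5B lay above 0 under all 20 alternatives (0.35 to 0.65) and passed under 8 of them, with a limma or limma-voom adjusted p from 0.00127 to 0.198. The gene was chosen by its call in these libraries, and every alternative reuses them. Its side was therefore close to fixed in advance and adds no support. TENT2, TENT4A and MTPAP lay below 0 under every alternative run, while TENT5A, TENT4B, PAPOLA and PAPOLG changed side under at least 1. Among the 8 tested members, no call under an alternative lay on the other side of 0 from the main fit. Only TENT5B was called in the main fit, and TENT5C entered only the fit without the filter.

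Counts of calls moved widely. Over all genes, 32 were higher and 12 lower; the counts were 0 and 0 without the filter on low values (2324 and 2346 at an unadjusted p under 0.05), 427 and 305 at a mean FPKM of at least 5, 2 and 2 with the same sum per library, 54 and 19 after quantile normalization, and 0 and 1 without the intensity trend. They were 909 and 837 with limma-voom, 3 and 2 with the GC trend removed, 4 and 4 with the GC trend removed without vehicle replicate 1, and 2711 and 2863 with library weights, whose estimation did not fully converge. Leaving out each library in turn gave 0 to 1267 higher and 0 to 1084 lower, the highest without vehicle replicate 2, with at least 1237 higher and 1217 lower at an unadjusted p under 0.05 each time.

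Among the 8 members, 1 higher and 0 lower became 0 and 0 without the filter, with the same sum, without the intensity trend, and with the GC trend removed (also without vehicle replicate 1), 1 and 1 with limma-voom (MTPAP lower), and 1 and 4 with library weights (TENT2, PAPOLA, PAPOLG and MTPAP lower). Leaving out each library gave 0 to 1 higher and 0 to 1 lower. Among the 104 tail genes, 0 and 0 became 1 and 5 at a mean FPKM of at least 5, 1 and 0 with median-ratio scaling, quantile normalization or the GC trend removed (also without vehicle replicate 1), 1 and 10 with limma-voom, and 9 and 38 with library weights, and leaving out each library gave 0 to 1 higher and 0 to 13 lower.

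With the replicate block 0 genes were called, members and tail genes included, and 0 with the GC trend removed with replicate block, against 1833 higher and 1843 lower, and 1075 and 1128, at an unadjusted p under 0.05. Same-numbered libraries did not deviate together (correlations of deviations -0.00, 0.05 and 0.02), so the numbers were not taken as pairs. Depth limits TENT5C most, with 27 to 55 fragments per library.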
